A study of Zea mays with 12 samples.

Results

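The genes described here are those of the maize leaf whose transcript ratio between bundle sheath (BS) and mesophyll (M) cells, BS/M, could be followed from the sink-source transition (SST) to the maturing stage, and the measure is the change of that ratio, log2 BS/M at maturing minus log2 BS/M at SST. A gene was taken when it was listed above 0 in each of the 8 libraries of these stages, which held for 18129 genes of the 47572 that were above 0 in at least 1 library of the series. Another 26105 genes were above 0 in some but not all of the 8 libraries and are counted apart. Of the 18129 genes, 18018 passed the level filter of the test and 111 did not.

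In C4 leaves, M cells fix CO2 into C4 acids that diffuse to the BS, where decarboxylating enzymes release CO2 around Rubisco. The BS also surrounds the vein, so that water, ions and sugars pass through it on their way between vein and M. SST is the stretch of a young leaf in which tissue stops importing sugar and begins to export it, and the maturing tissue above it has completed that step. A changed BS/M ratio can come from a level that moved in BS, in M or in both, so the stage change within each cell type is given beside it.

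The material was the third leaf of 9-day-old seedlings of the inbred Mo17, which was not treated and carried no introduced allele. The 4 groups were maturing BS, maturing M, SST BS and SST M, with 2 libraries each. Maturing is leaf section 9, at 4 cm from the point where the transition is complete, and SST is section 4, at -1 cm. The sections were matched to the stages by their order along the leaf. The study states that SST tissue receives less light than the later stages, so that stage and light cannot be told apart here. Cells were cut from acetone-fixed, paraffin-embedded tissue by laser and their RNA was amplified by 1 round before sequencing. A capture of this kind can take in pieces of neighbouring cells. Nothing in the labels says whether the 2 libraries of a group came from separate plants, so that p-values measure the spread between these libraries, which may be technical.

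The libraries matched their labels. Levels are in FPKM, fragments corrected for transcript length and library size, after all libraries had been set to the same upper quartile, and fitted log2 values carry a pseudocount of 0.255 FPKM. The summed level of 6 BS markers, NADP-ME, PEPCK and the small Rubisco subunit among them, was 20231 to 21576 FPKM in maturing BS and 789 to 849 FPKM in maturing M, against 8208 to 8919 FPKM in SST BS and 1209 to 1220 FPKM in SST M. The 5 M markers, whose sum was mostly PPDK, summed to 15989 to 16748 FPKM in maturing BS and 48404 to 51762 FPKM in maturing M, against 8400 to 8483 FPKM in SST BS and 21848 to 26456 FPKM in SST M. The BS markers were thus lower in M captures at maturing than at SST, while they were higher in BS captures, and the part of this in the changes toward BS was not tested. None of these 11 markers was at 0 in any of the 8 libraries. For the epidermis the words matched 9 genes, all 3-ketoacyl-CoA synthases of fatty acid elongation and none a stomatal marker, which summed to 2.95 to 4.58 FPKM in maturing BS and 27.4 to 27.7 FPKM in maturing M, against 8.77 to 8.99 FPKM in SST BS and 27.4 to 30.9 FPKM in SST M, with 2 of them at 0 in both libraries of maturing BS, of maturing M and of SST M and 1 in those of SST BS, and their part was not tested either. For dividing cells the words matched 16 core histone genes, which summed to 749 to 777 FPKM in maturing BS and 737 to 848 FPKM in maturing M, against 577 to 581 FPKM in SST BS and 796 to 927 FPKM in SST M. A single histone H3 gene, GRMZM2G051879, had means of 354, 380, 264 and 272 FPKM in the same order, so that the sum says little of the lower genes. Within M most of the histone genes were lower at maturing, as -3.4 for GRMZM2G475899, -2.9 for GRMZM2G073275 and -2.5 for GRMZM2G130079. Those higher within M were GRMZM2G051879, GRMZM2G145758 and GRMZM2G171387, at 0.49, 0.58 and 0.12. Within BS they moved both ways, as 1.6 for GRMZM2G171387 and -2.4 for GRMZM2G073275. The part of dividing cells in the changes toward BS was not tested. No vascular marker could be matched by its annotation. The maturing libraries were deeper than those of SST by the steps that single reads leave among low values. Set against 1 for SST BS replicate 1, depth was 2.31 to 2.36 at maturing and 0.645 to 1.00 at SST.

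The BS/M ratio changed toward BS for 272 genes and toward M for 168 genes in limma, at a p below 0.05 after Benjamini-Hochberg adjustment. The 272 genes were 1.51% of the 18018 tested, and the 168 genes were 0.932%. Over all 32548 genes tested in the series, 1.16% were called toward BS and 0.796% toward M, 1.96% in all. At an adjusted p below 0.01, 28 and 8 genes remained toward BS and toward M. Among called genes the median change was 2.31 toward BS and -1.74 toward M on the log2 scale, and the sizes of the change ran from 0.90 to 6.66 and from 0.88 to 5.17 in the same order. In each of the 440 genes the BS minus M difference of the 2 stages was separated in every pairing of libraries, which was so for 31.6% of all genes tested. The separation uses the same 8 libraries as the contrast, so it adds no support to the calls. The last gene inside the threshold had an adjusted p of 0.0494 and the first outside it 0.0502. Over all 18018 genes, called or not, the median change was -0.05 and its SD 0.94. Of these, 4260 genes had a change of at least 1 in size, against a median standard error of 0.48 for a single gene. Of the called genes 61.8% lay toward BS, a share that was 75.0% when the deposited values were left unscaled and 72.3% under median-of-ratios scaling. One library weighed on the M side: without maturing BS replicate 2, the calls were 358 toward BS and 441 toward M. The calls toward M were 280 and 279 without the mature BS replicates 1 and 2, which lend only their spread to the fit.

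**Figure D1:**
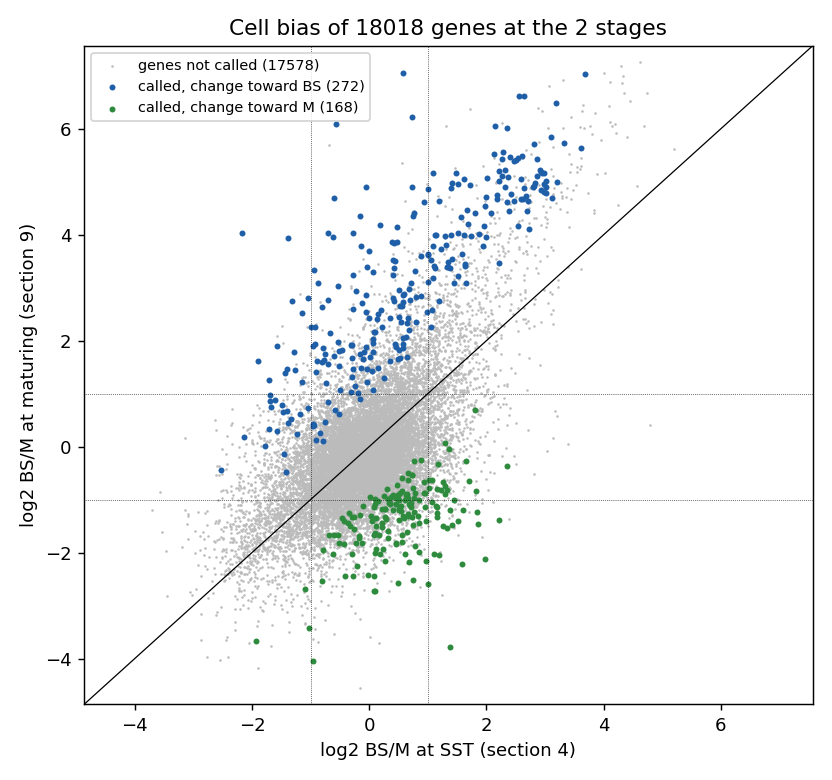
Log2 BS/M at maturing (y axis) against log2 BS/M at SST (x axis) for the 18018 genes tested, with the 272 genes called toward BS in blue and the 168 called toward M in green. The diagonal marks equal ratios at both stages and the dotted lines a 2-fold bias. Genes called toward BS lie above the diagonal, many of them with a log2 BS/M above 1 at both stages, while most genes called toward M lie inside the 2-fold band at SST.

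Changes toward BS came from levels that rose in BS, fell in M or did both, whereas changes toward M came mostly from levels that fell in BS. Toward BS, 239 of 272 genes had a higher BS level at maturing than at SST and 64 had a higher M level, and the stage changes were of opposite sign in 175. The median stage change of these genes was 1.33 within BS and -0.91 within M. A stage change of at least 2-fold was seen in BS alone for 112, in M alone for 81, in both cell types for 60 and in neither for 19. Toward M, 10 of 168 genes had a higher BS level at maturing and 73 a higher M level, with a median stage change of -1.91 within BS and -0.12 within M. Here 76 genes moved at least 2-fold in BS alone, 16 in M alone, 60 in both and 16 in neither. Over all 18018 genes the median stage change was 0.12 within BS and 0.14 within M. In such captures, fewer cells with a transcript and less transcript per cell cannot be told apart.

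**Figure D2:**
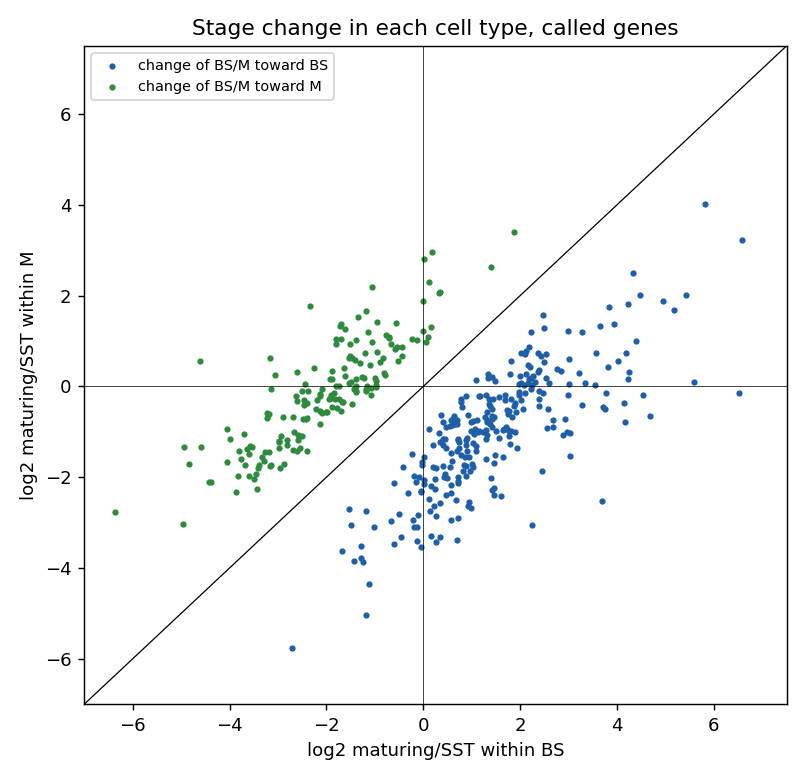
Log2 maturing/SST within M (y axis) against log2 maturing/SST within BS (x axis) for the 440 called genes, blue for a change of BS/M toward BS and green for a change toward M. On the diagonal both cell types move by the same amount. Blue points centre on 1.33 within BS and -0.91 within M, and green points on -1.91 within BS and -0.12 within M.

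The called genes were grouped by where their ratio stood at each stage, with 2-fold as the limit of a bias. The grouping used fitted ratios, which need not pass a test at each stage. At SST the ratio itself passed limma at an adjusted p below 0.05 for 145 of the 272 genes called toward BS and 59 of the 168 toward M. At maturing it did so for 248 and 148. Toward BS, 120 genes gained a BS bias from within the 2-fold band and 109 deepened one they already had at SST. Another 19 lost an M bias, 13 turned from an M bias to a BS bias, and 11 moved inside the band. The deepened group had a median log2 BS/M of 4.72 at maturing and 2.18 at SST, and the gained group 2.38 and 0.06. Toward M, 97 genes gained an M bias, with a median of -1.45 at maturing and 0.26 at SST. Only 3 deepened an M bias, while 21 turned from BS to M, 17 lost a BS bias and 30 moved inside the band. Among called genes, a deepened bias was therefore the second most frequent class toward BS and the least frequent toward M. How many of all genes tested had a 2-fold BS or M bias at SST is not given here. The class counts therefore cannot tell whether a BS bias deepened more readily than an M bias.

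The mature stage, section 14 at 9 cm, gave a BS/M ratio from 4 libraries that did not enter the contrast, although their spread entered the common error. Of the 272 genes called toward BS, 186 had at least 2-fold more transcript in BS at the mature stage and 8 at least 2-fold more in M, with a median log2 BS/M of 1.78. Of the 168 called toward M, 34 were at least 2-fold higher in M and 3 at least 2-fold higher in BS, with a median of -0.48. By class, the median mature log2 BS/M was 2.87 for the 109 genes with a deepened BS bias, 1.45 for the 120 that gained one and 0.83 for the 13 that turned to BS, of which 8 were above 0. Of the 21 genes that turned to M, 2 were above 0 at the mature stage, and their median was -0.77. Read the other way, 2298 of the 18018 genes tested were BS-biased by 2-fold or more at the mature stage and 2423 were M-biased. Of the 2298, 186, or 8.09%, were called toward BS between SST and maturing and 3 toward M. Among the 2423 genes with a mature M bias, 34, or 1.40%, were called toward M and 8 toward BS. The shares over all 18018 genes were 1.51% toward BS and 0.932% toward M, so that the share on the M side was the nearer to that of all genes. The median log2 BS/M of the mature BS genes was 0.99 at maturing and 0.54 at SST, and that of the mature M genes -0.94 and -0.67.

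**Figure D3:**
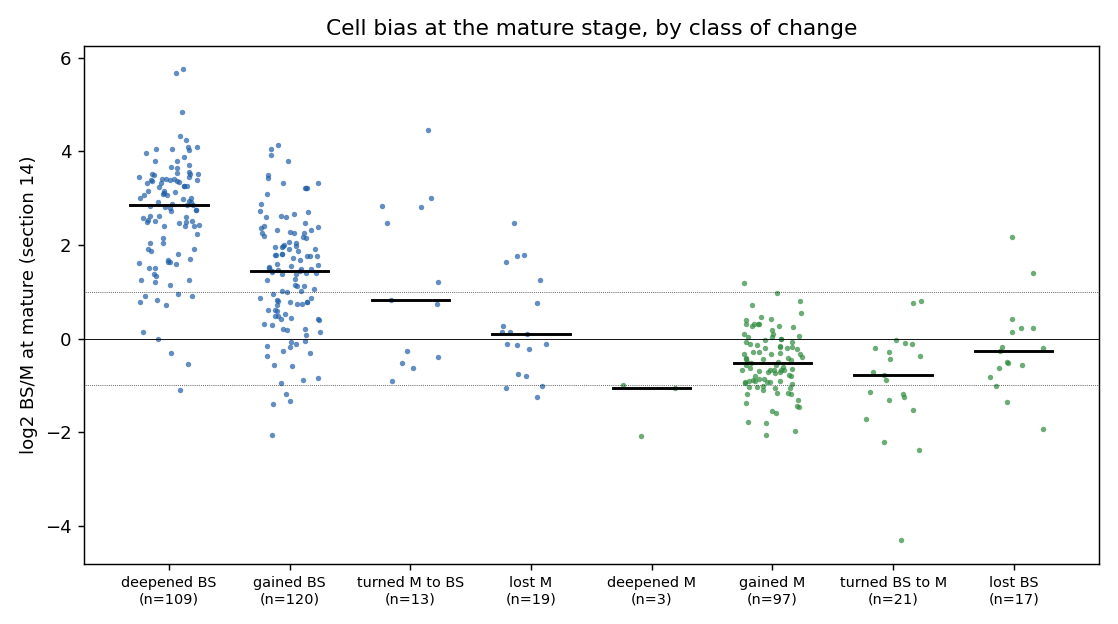
Log2 BS/M at the mature stage (y axis) for called genes by class of their change between SST and maturing (x axis), 1 point a gene and a black line at the median, with classes toward BS in blue and toward M in green. The 41 called genes that moved inside the 2-fold band are left out. Medians run from 2.87 in the deepened BS class to -1.06 in the deepened M class, and points on both sides of 0 occur in every class except deepened M.

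The decarboxylating side of C4 photosynthesis deepened a BS bias that was already strong at SST. NADP-ME (GRMZM2G085019), which releases CO2 from malate in BS chloroplasts, had 10020 and 8860 FPKM in maturing BS and 251 and 266 FPKM in maturing M, against 2863 and 2809 FPKM in SST BS and 378 and 360 FPKM in SST M. The BS libraries of maturing were the highest and the M libraries of maturing the lowest, with no overlap. Its log2 BS/M was 5.19 at maturing and 2.94 at SST, a change of 2.25 ± 0.35 (SE, adjusted p = 0.023). PEPCK (GRMZM2G001696), the second decarboxylase, had 3722 and 3547 FPKM in maturing BS and 140 and 121 FPKM in maturing M, against 1362 and 1430 FPKM in SST BS and 177 and 176 FPKM in SST M. Its ratio changed by 1.82 ± 0.23 (adjusted p = 0.012), through a stage change of 1.38 within BS and -0.44 within M. Rubisco activase (Rca, GRMZM2G162200), which removes inhibitory sugar phosphates from Rubisco, changed by 1.77 ± 0.25 (adjusted p = 0.017), with stage changes of 0.99 within BS and -0.77 within M. Of the 6 BS markers 3 were called, and the lowest and the highest change among the 6 were 0.27 and 2.25. The small Rubisco subunit ssu1 (GRMZM2G098520) had a change of 1.48 ± 0.32 that did not pass (adjusted p = 0.063), nor did Golden2 (GRMZM2G087804), a factor of BS chloroplast development, at 1.45 ± 0.31 (adjusted p = 0.063). In single fits they did: ssu1 in 4 of 9 other settings, and Golden2 without SST BS replicate 1 or SST M replicate 2 (lowest adjusted p 0.022). None of the 5 M markers was called, and their changes lay between -0.49 and 0.51. The NADP-ME call depended on 2 libraries, the adjusted p being 0.054 without maturing BS replicate 1 and 0.055 without maturing M replicate 1.

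A pair of metabolite carriers deepened their BS bias while their M levels fell. DCT2 (GRMZM2G086258), a plastid dicarboxylate transporter, had 1282 and 1236 FPKM in maturing BS and 51.2 and 45.7 FPKM in maturing M, against 932 and 952 FPKM in SST BS and 112 and 104 FPKM in SST M. Its change of 1.57 ± 0.23 (adjusted p = 0.018) came with a stage change of -1.15 within M and 0.42 within BS. The mitochondrial carrier ZmBOU (GRMZM2G024823) changed by 1.65 ± 0.30 (adjusted p = 0.037) with a stage change of -0.02 within BS and -1.67 within M. Both moved by 2-fold or more in M alone, whereas the decarboxylases NADP-ME and PEPCK did so in BS alone. A triosephosphate isomerase (GRMZM2G030784) had a change of 1.76 ± 0.43 that did not pass (adjusted p = 0.089). The ZmBOU call was lost in 6 of the 8 fits that left out 1 library and was kept without SST M replicate 2 and without maturing BS replicate 2, with adjusted p from 0.042 to 0.072.

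**Figure D4:**
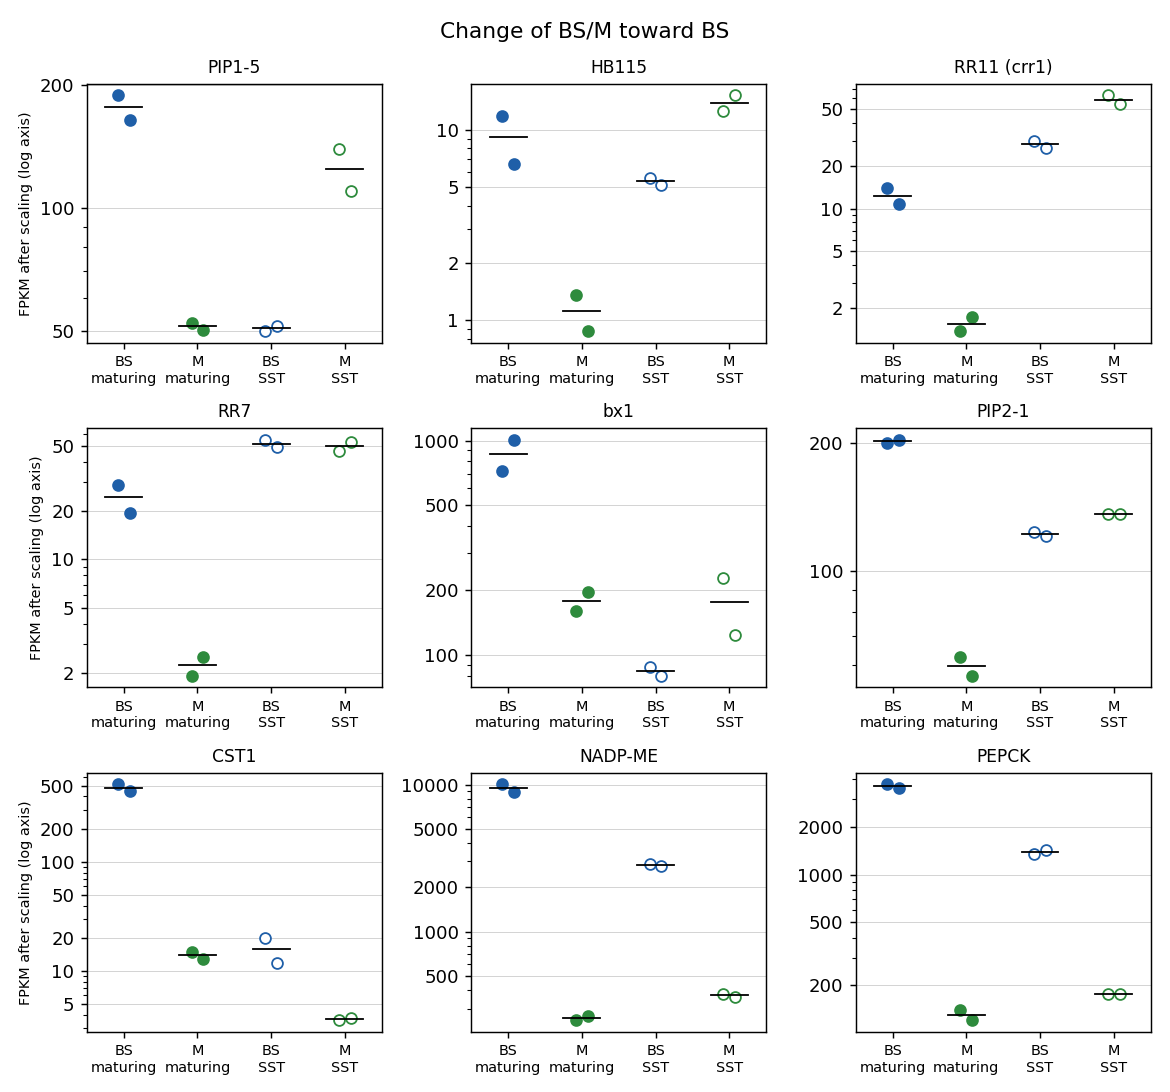
Scaled FPKM on a log axis in each library for 9 genes with a change of BS/M toward BS, in maturing BS, maturing M, SST BS and SST M from left to right. Blue marks BS and green M, filled points are maturing and open points SST, and the black line is the mean of 2 libraries. In PIP1-5, HB115 and RR11 the order of BS and M is opposite at the 2 stages, whereas NADP-ME, PEPCK and CST1 have more transcript in BS at both.

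Of the water channels, 4 were called toward BS. PIP1-5 (GRMZM2G081843), a plasma membrane aquaporin, had the lowest adjusted p of any named gene. It had 189 and 165 FPKM in maturing BS and 52.1 and 50.3 FPKM in maturing M, against 49.9 and 51.4 FPKM in SST BS and 140 and 110 FPKM in SST M. The high and the low cell type exchanged places without any overlap: log2 BS/M was 1.78 at maturing and -1.29 at SST, a change of 3.07 ± 0.20 (adjusted p = 0.00032), and it was 1.22 at the mature stage. PIP2-1 (GRMZM2G014914) had 200 and 203 FPKM in maturing BS and 62.8 and 56.6 FPKM in maturing M, against 124 and 121 FPKM in SST BS and 136 FPKM in both SST M libraries. Its change of 1.90 ± 0.17 (adjusted p = 0.0029) was not kept as a bias at the mature stage, where log2 BS/M was -0.18. PIP2-6 (GRMZM2G047368) deepened its BS bias by 2.52 ± 0.42 (adjusted p = 0.029). NIP2-1 (GRMZM2G028325), whose rice counterpart Lsi1 is a silicon channel, did so by 2.09 ± 0.35 (adjusted p = 0.029), with a stage change of 1.97 within BS and -0.12 within M. Of the 19 aquaporins matched by symbol, these 4 were called toward BS and none toward M, 16 had a change above 0, and the median was 0.87. Over all 18018 genes 1.51% were called toward BS and 47.3% had a change above 0, with a median of -0.05. Near-identical aquaporin copies may share reads, and how the counting treated them is not given in the sources used here. The call of PIP2-6 was lost without SST BS replicate 2, SST M replicate 2, maturing BS replicate 1 or maturing M replicate 1 (highest adjusted p 0.067), and that of NIP2-1 without SST BS replicate 2, SST M replicate 1 or maturing M replicate 2 (highest adjusted p 0.061).

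Among regulators, HB115 (GRMZM2G021339), a homeobox factor, turned from M to BS. It had 11.8 and 6.62 FPKM in maturing BS and 1.36 and 0.88 FPKM in maturing M, against 5.60 and 5.13 FPKM in SST BS and 12.6 and 15.2 FPKM in SST M. M was highest at SST and lowest at maturing, and the ratio changed by 4.07 ± 0.49 (adjusted p = 0.0099), with -3.38 within M and 0.69 within BS. A second homeobox factor, HB112 (GRMZM2G003304), changed by 2.32 ± 0.39 (adjusted p = 0.030), with 1.43 within BS and -0.89 within M. The other 12 homeobox genes matched by symbol were not called, and the median of the 14 was -0.08.

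The cytokinin response regulators RR7 and RR11 are receivers of the phosphorelay, and at maturing their M levels fell by 4.36 for RR7 and by 5.04 for RR11 on the log2 scale, while the changes of -1.12 and -1.19 within BS did not pass (adjusted p = 0.051 and 0.17). RR7 (GRMZM2G096171) had 29.1 and 19.5 FPKM in maturing BS and 1.92 and 2.51 FPKM in maturing M, against 54.9 and 49.4 FPKM in SST BS and 47.1 and 52.9 FPKM in SST M. The cell types overlapped at SST and were apart at maturing. Its ratio changed by 3.24 ± 0.48 (adjusted p = 0.020). RR11 (crr1, GRMZM2G040736) had 14.0 and 10.7 FPKM in maturing BS and 1.37 and 1.72 FPKM in maturing M, against 29.8 and 26.9 FPKM in SST BS and 62.8 and 54.5 FPKM in SST M. It turned from M to BS with a change of 3.85 ± 0.75 at an adjusted p of 0.047, which was above 0.05 in every fit that left out 1 of the 8 libraries (0.067 to 0.12). Of 7 response regulators these 2 were called, 5 had a change above 0 and the median was 1.15. Among the 18018 genes 1.51% were called toward BS and 47.3% had a change above 0.

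MYB59 (GRMZM2G130149) had 342 and 414 FPKM in maturing BS and 10.02 and 7.10 FPKM in maturing M, against 89.8 and 89.4 FPKM in SST BS and 13.7 and 10.6 FPKM in SST M. This factor deepened its BS bias by 2.57 ± 0.29 (adjusted p = 0.0068), and its mature log2 BS/M was 4.85. The bZIP factor BZO2H2 (GRMZM2G098904) changed by 3.17 ± 0.47 (adjusted p = 0.020), with 1.47 within BS and -1.70 within M. bZIP58 (GRMZM2G149040) gained a BS bias of 2.72 at maturing, with -0.12 at SST and -0.11 at the mature stage, a change of 2.84 ± 0.46 (adjusted p = 0.026). MYBR32 (GRMZM2G088524) changed by 2.15 ± 0.31 (adjusted p = 0.019) with a stage change of 0.01 within BS and -2.14 within M, and its mature log2 BS/M was 0.14. KIN5 (td1, GRMZM2G300133), a receptor-like kinase, changed by 2.79 ± 0.40 (adjusted p = 0.018). NAC20 (GRMZM2G180328) changed by 3.64 ± 0.71 (adjusted p = 0.047), a call kept without SST M replicate 2 or maturing BS replicate 2 and lost without any of the other 6 libraries (highest adjusted p 0.11). By family, 1 of 8 NAC, 2 of 22 MYB and MYB-related, 1 of 21 bZIP and 2 of 14 homeobox genes were called toward BS and none of them toward M. Beside these counts, 1.51% of the 18018 genes were called toward BS and 0.932% toward M. Families were matched by symbol, so that BZO2H2, whose symbol does not name its family, is not among the 21. None of the 16 bHLH, 14 AP2/EREB, 9 WRKY, 10 SBP and 6 GLK genes matched by symbol was called in either direction.

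A pair of sugar transporter genes and a starch gene rose in BS. CST1 (GRMZM2G153358), a member of the MtN3 (SWEET) family of sugar transporters, had 516 and 446 FPKM in maturing BS and 15.1 and 13.0 FPKM in maturing M, against 20.0 and 11.8 FPKM in SST BS and 3.57 and 3.68 FPKM in SST M. It rose in both cell types, by 4.94 within BS and 1.88 within M, and the ratio changed by 3.07 ± 0.45 (adjusted p = 0.020). At the mature stage it had 0.42 and 0.12 FPKM in BS and 0.87 and 0.78 FPKM in M. A second MtN3 gene (GRMZM2G173669) had 289 and 202 FPKM in maturing BS and 7.22 and 6.83 FPKM in maturing M, against 12.1 and 9.37 FPKM in SST BS and 1.45 and 1.64 FPKM in SST M. Its ratio changed by 2.45 ± 0.32 (adjusted p = 0.012), and unlike CST1 it was still BS-biased at the mature stage, at 1.71. ISA1 (GRMZM2G138060), an isoamylase that debranches glucan during starch synthesis, gained a BS bias of 2.17 at maturing, with 0.08 at SST, a change of 2.08 ± 0.30 (adjusted p = 0.018) with a stage change of 2.16 within BS and 0.08 within M. It was the 1 gene called of 11 annotated for starch synthesis, whose median change was 0.26 and whose annotation comes from a list the study chose on these samples. Of 16 genes annotated for sucrose synthesis, cleavage and transport none was called, and their median was -0.29. CST1 and GRMZM2G173669 are not among these 16, because their annotation names the MtN3 family and neither sucrose nor SWEET. The 16 come from the same list chosen on these samples. Among the 18018 genes 1.51% were called toward BS, and the median was -0.05. The sfp3 gene (GRMZM2G042171), at 20.5 and 26.6 FPKM in maturing BS and 0.64 and 0.68 FPKM in maturing M, against 4.64 and 4.84 FPKM in SST BS and 7.52 and 7.10 FPKM in SST M, changed by 5.29 ± 0.63 (adjusted p = 0.0099).

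The benzoxazinoid pathway makes indole-derived defence compounds of grasses, and bx1 (GRMZM2G085381), its first step, had 723 and 1007 FPKM in maturing BS and 161 and 196 FPKM in maturing M, against 87.7 and 80.2 FPKM in SST BS and 227 and 124 FPKM in SST M. BS stood below M at SST and above it at maturing, and the stage change within M was 0.08. The SST ratio, at -1.00, did not pass limma on its own (adjusted p = 0.21), and the mature log2 BS/M was -0.27. The change was 3.26 ± 0.61 (adjusted p = 0.041). With 1 library left out it passed only without SST M replicate 2, and the highest adjusted p in the other 7 fits was 0.11. The glucosyltransferase bx9 (GRMZM2G161335) changed by 1.75 ± 0.23 (adjusted p = 0.013), with 1.36 within BS and -0.38 within M. Of 8 benzoxazinoid genes these 2 were called, 6 had a change above 0 and the median was 0.72. The shares among the 18018 genes were 1.51% called toward BS and 47.3% with a change above 0. A lactoylglutathione lyase (GRMZM2G067028), which detoxifies methylglyoxal, changed by 2.49 ± 0.25 (adjusted p = 0.0043). The glutathione transferase gene gst28 (GRMZM2G146475) lost an M bias, with a change of 2.67 ± 0.52 (adjusted p = 0.047) that did not pass in 6 of the 8 fits that left out 1 library (highest adjusted p 0.11). It passed without SST BS replicate 1 and without maturing BS replicate 1. Among 13 glutathione transferases it was the 1 called.

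A pectinesterase (GRMZM2G019411), an enzyme that removes methyl groups from wall pectin, had 43.7 and 42.3 FPKM in maturing BS and 0.59 and 0.24 FPKM in maturing M, against 3.51 and 2.42 FPKM in SST BS and 0.29 and 0.69 FPKM in SST M. Its ratio changed by 3.91 ± 0.50 (adjusted p = 0.012). A second one (GRMZM2G167637) changed by 3.18 ± 0.52 (adjusted p = 0.026), with -2.50 within M, and was M-biased at the mature stage, at -1.39. A histone H1 gene (GRMZM2G069911), annotated after the drought-induced H1-3 of Arabidopsis, had 88.2 and 84.9 FPKM in maturing BS and 8.01 and 8.14 FPKM in maturing M, against 8.99 and 12.4 FPKM in SST BS and 8.06 and 7.60 FPKM in SST M. Maturing BS stood apart from the other 3 groups, and the change was 2.96 ± 0.32 (adjusted p = 0.0065). A gene annotated as ethylene-responsive (GRMZM2G030123) changed by 2.91 ± 0.36 (adjusted p = 0.012), with -2.58 within M. The derlin der2 (GRMZM2G082976), of the pathway that clears misfolded proteins from the endoplasmic reticulum, changed by 2.86 ± 0.50 (adjusted p = 0.033), a call lost without SST BS replicate 2, maturing BS replicate 1 or maturing M replicate 2 (highest adjusted p 0.065). The gene with the largest change of the 272, GRMZM2G009189, had no name in the tables used, with 38.2 and 43.5 FPKM in maturing BS and 0.78 and 0.10 FPKM in maturing M, against 0.18 and 0.20 FPKM in SST BS and 0.58 and 0.27 FPKM in SST M. Its change was 6.66 ± 0.65 (adjusted p = 0.0037).

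Of 10 genes annotated for jasmonate synthesis none was called, and all 10 had a change above 0, with a median of 1.31, a median of 0.27 within BS and of -1.25 within M, and a median log2 BS/M of 0.14 at maturing and -1.53 at SST. For comparison, 8516 of the 18018 genes had a change above 0 and the median was -0.05. The 13 genes annotated for auxin response and transport had a median change of 0.56, with 10 above 0 and none called. Both annotations come from genes that the study had chosen on these samples.

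Toward M, the largest change was that of c2 (GRMZM2G422750), a chalcone synthase gene of flavonoid synthesis. It had 0.18 and 0.29 FPKM in maturing BS and 7.76 and 5.26 FPKM in maturing M, against 14.3 and 9.21 FPKM in SST BS and 2.98 and 5.97 FPKM in SST M. BS was highest at SST and lowest at maturing, while M overlapped between the stages. Its log2 BS/M turned to -3.78 at maturing, against 1.39 at SST, a change of -5.17 ± 0.57 (adjusted p = 0.0068), and it was -1.71 at the mature stage. Other genes that turned from BS to M were a methionine synthase (GRMZM2G112149), with a change of -3.61 ± 0.57 (adjusted p = 0.024), and the unnamed GRMZM2G377079, at -4.09 ± 0.62 (adjusted p = 0.021). The methionine synthase had 0.024 and 0.14 FPKM in maturing BS and 0.63 and 0.61 FPKM in maturing M, against 28.8 and 25.7 FPKM in SST BS and 5.56 and 5.77 FPKM in SST M. P5CS1 (GRMZM2G375504), of proline synthesis, turned with a change of -2.46 ± 0.47 (adjusted p = 0.044), and nfa101 (GRMZM2G140051), a nucleosome assembly protein, with one of -2.50 ± 0.48 (adjusted p = 0.046). P5CS1 was called without SST M replicate 2, maturing BS replicate 2 or maturing M replicate 1 and not without any of the other 5 (highest adjusted p 0.083). The nfa101 gene was called without either maturing BS library and in none of the other 6 fits (highest adjusted p 0.10).

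**Figure D5:**
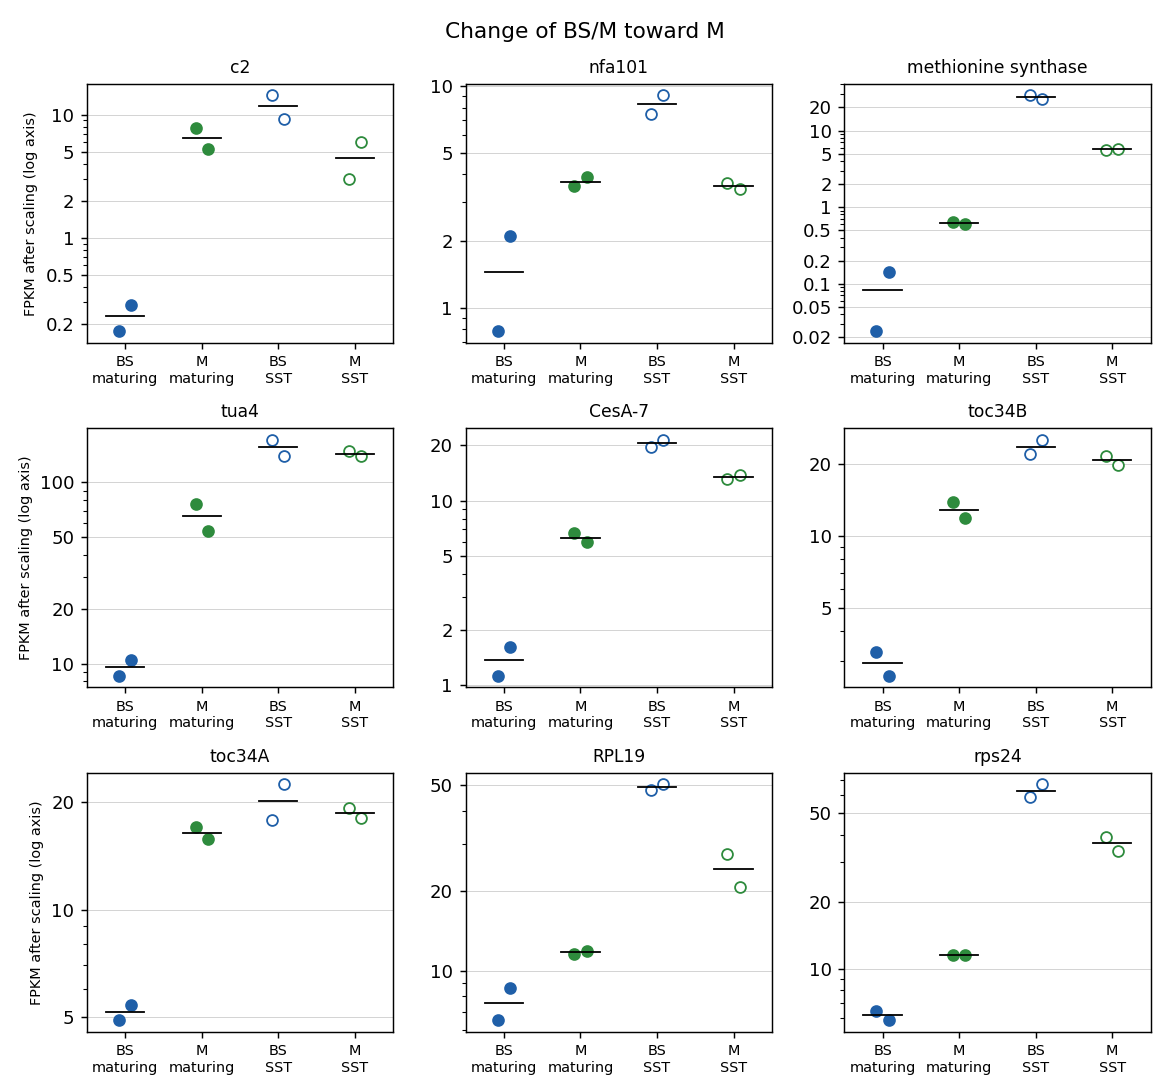
Scaled FPKM on a log axis in each library for 9 genes with a change of BS/M toward M, in maturing BS, maturing M, SST BS and SST M from left to right. Blue marks BS and green M, filled points are maturing and open points SST, and the black line is the mean of 2 libraries. Maturing BS is the lowest group in all 9, and in tua4, toc34A and toc34B the cell types lie close together at SST.

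The ribosomal protein genes called all lay toward M. Of 34 cytosolic ribosomal protein genes matched by symbol, 4 were called toward M and none toward BS, 5 had a change above 0, and the median change was -0.87, with -2.64 within BS and -1.53 within M. Over all 18018 genes 0.932% were called toward M and 47.3% had a change above 0. RPS24 (GRMZM2G091383) had 6.47 and 5.87 FPKM in maturing BS and 11.5 FPKM in both maturing M libraries, against 58.8 and 67.2 FPKM in SST BS and 39.0 and 33.9 FPKM in SST M. BS was above M at SST and below it at maturing, a change of -1.66 ± 0.22 (adjusted p = 0.013). The others were RPL19 (GRMZM5G887054) at -1.66 ± 0.29 (adjusted p = 0.033), RPS4 (GRMZM2G125271) at -1.44 ± 0.24 (adjusted p = 0.029) and the acidic stalk protein gene rpp2a-4 (GRMZM2G075630) at -1.18 ± 0.19 (adjusted p = 0.024). BTF3 (GRMZM2G131577), related to a subunit of the complex that binds nascent polypeptides, changed by -1.70 ± 0.26 (adjusted p = 0.022). The RPL19 call was lost without SST BS replicate 2, maturing BS replicate 1 or either maturing M library (highest adjusted p 0.062). Ribosomal protein genes have near-identical copies whose reads may have been split.

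The import receptors toc34A and toc34B, GTPases of the outer plastid envelope, were both called toward M. The list matched by symbol held only these 2, and 0.932% of the 18018 genes were called toward M. The other genes of plastid function given below are single genes, with no list counted beside them. The toc34B gene (GRMZM2G157157) had 3.28 and 2.61 FPKM in maturing BS and 13.8 and 11.8 FPKM in maturing M, against 22.0 and 25.1 FPKM in SST BS and 21.5 and 19.8 FPKM in SST M, and toc34A (GRMZM2G159777) had 4.90 and 5.40 FPKM in maturing BS and 17.1 and 15.8 FPKM in maturing M, against 17.9 and 22.4 FPKM in SST BS and 19.3 and 18.0 FPKM in SST M. In both, the BS level at maturing alone stood apart from the SST levels by 2-fold or more. The changes were -2.22 ± 0.33 (adjusted p = 0.020) and -1.73 ± 0.27 (adjusted p = 0.022) for toc34B and toc34A, and the mature log2 BS/M was 0.09 and 0.05, so that the M bias was one of the maturing stage. The splicing factor CFM2 (GRMZM2G094072), of the plastid CRM family, changed by -2.24 ± 0.31 (adjusted p = 0.015), and its mature ratio was 0.26. The pentatricopeptide repeat protein gene ppr5 (GRMZM2G025409), which acts on plastid RNA, changed by -2.36 ± 0.32 (adjusted p = 0.015) with a stage change of 1.41 within M and -0.95 within BS. The iojap gene Ij (GRMZM2G004583), whose mutants lack plastid ribosomes in their white tissue, had 89.4 and 107 FPKM in maturing BS and 182 and 178 FPKM in maturing M, against 148 and 145 FPKM in SST BS and 101 and 104 FPKM in SST M. Its ratio changed by -1.40 ± 0.17 (adjusted p = 0.010) without leaving the 2-fold band. RLSB (GRMZM2G087628), which binds Rubisco large subunit mRNA, had a change of -1.52 ± 0.47 that did not pass (adjusted p = 0.16), except without maturing BS replicate 2 (0.033).

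Single genes of the cytoskeleton, wall and chromatin were also called toward M. The alpha-tubulin gene tua4 (GRMZM2G152466) had 8.61 and 10.5 FPKM in maturing BS and 75.9 and 54.0 FPKM in maturing M, against 172 and 140 FPKM in SST BS and 148 and 140 FPKM in SST M. Its ratio changed by -2.83 ± 0.30 (adjusted p = 0.0055), and it was the 1 called of 7 tubulins, whose median was -0.78. The cellulose synthase gene CesA-7 (GRMZM2G025231) changed by -2.64 ± 0.46 (adjusted p = 0.032), the 1 called of 8, whose median was -1.10. The call of CesA-7 held without maturing BS replicate 2 and was lost without any of the other 7 libraries (highest adjusted p 0.073). The 12 genes annotated for secondary wall and lignin had a median change of -1.58, with 2 above 0 and none called, from medians of -3.01 within BS and -1.62 within M. Their annotation comes from genes that the study had chosen on these samples. Among the 18018 genes 0.932% were called toward M, 47.3% had a change above 0 and the median was -0.05. The histone deacetylase gene HD2b (GRMZM2G100146) changed by -2.29 ± 0.33 (adjusted p = 0.018). The lipid transfer protein gene plt2 (GRMZM2G010868) had 1.47 and 1.26 FPKM in maturing BS and 27.0 and 25.9 FPKM in maturing M, against 15.4 and 12.8 FPKM in SST BS and 24.95 and 30.2 FPKM in SST M. It fell by 3.14 within BS, the value within M was -0.06, and the ratio changed by -3.09 ± 0.36 (adjusted p = 0.0085). A second lipid transfer protein gene (GRMZM2G107839) changed by -2.39 ± 0.47 (adjusted p = 0.048), which was past the threshold only without maturing BS replicate 2 or either maturing M library (highest adjusted p in the other 5 fits 0.11).

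A pair of cytosolic Cu/Zn superoxide dismutases moved in opposite directions. Sod4A (GRMZM2G058522) had 179 and 186 FPKM in maturing BS and 40.4 and 35.7 FPKM in maturing M, against 141 and 134 FPKM in SST BS and 62.0 and 69.6 FPKM in SST M. Sod4 (GRMZM2G169890) had 10.6 and 10.1 FPKM in maturing BS and 12.1 and 9.38 FPKM in maturing M, against 44.5 and 38.6 FPKM in SST BS and 16.3 and 15.7 FPKM in SST M. The BS bias of Sod4A deepened by 1.20 ± 0.18 (adjusted p = 0.019), whereas that of Sod4 was lost, with a change of -1.41 ± 0.24 (adjusted p = 0.029). Both had a BS bias at the mature stage, at 1.15 for Sod4A and 1.40 for Sod4.

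Genes with a 0 in at least 1 of the 8 libraries added 106 calls toward BS and 91 toward M among the 14530 such genes tested. Over all 32548 genes tested, 1.16% were called toward BS and 0.796% toward M. In 74 of the 106 both maturing M libraries were listed at 0, and in 73 both SST BS libraries. Of the 91 toward M, 67 had both maturing BS libraries at 0 and 70 both SST M libraries. Such zeros were not counted among genes that were not called. PPCK1 (GRMZM2G178074), a kinase that phosphorylates PEP carboxylase, had 0.23 and 0.38 FPKM in maturing BS and 5.44 and 8.66 FPKM in maturing M, against 0.10 and 0.87 FPKM in SST BS, and was listed at 0 in both SST M libraries. The call toward M (adjusted p = 0.023) was lost without maturing BS replicate 1 or maturing M replicate 2 (highest adjusted p 0.057). MYBR87 (GRMZM2G158117) had 43.1 and 39.99 FPKM in maturing BS and 0.58 and 0.44 FPKM in maturing M and was listed at 0 in all 4 SST libraries, with a call toward BS (adjusted p = 0.0097). The phosphate transporter gene PHT1-3 (GRMZM2G045473) had 3.65 and 3.81 FPKM in maturing BS and 0.040 and 0 FPKM in maturing M, against 0.98 and 0.66 FPKM in SST BS and 0.59 and 0.45 FPKM in SST M (adjusted p = 0.012). A value of 0 here is a listed value, and the SST libraries were the shallower ones.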

How the data were processed

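The deposited table gives FPKM values (fragments normalized to transcript length and library size), computed by the authors for each gene model and each of the 12 libraries. The submitters' notes name TopHat2 2.0.10, Cuffdiff 2.1.1, CASAVA 1.3 and B73 RefGen_v3, with no roles given. The plants were Mo17. Counts were not used.

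Libraries were brought to the same upper quartile, 2.55 FPKM, and log2 values were taken after adding 0.255 FPKM. All FPKM printed are after this scaling. The test took the 32548 genes whose mean reached 0.255 FPKM in any group. Fold changes of low genes are understated on this scale. limma 3.58.1 (R 4.3.3, eBayes with trend, 6 residual and 2.12 prior degrees of freedom) fitted 6 group means over 12 libraries. The p-values were Benjamini-Hochberg adjusted over all genes tested, with a threshold of 0.05. Tables were made with Python 3.11.15 and pandas 2.3.3. The fit was tested on simulated data.

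Named genes were, among calls separated in every pairing and with a symbol, the 12 with the largest change per direction and the 5 with the largest change per turned class. To these came genes that the study discusses, the 2 called with the largest change per list and, per direction, the gene without a symbol that had the largest change. Not every gene under this rule is printed. Left out are most of the 31 genes that the study discusses. Also left out are the 1 called of 7 trehalose-phosphate synthases and the 1 called of 13 potassium transporters, both toward BS. Rca and ssu1 were named as markers. DCT2, PIP2-1, NIP2-1, GRMZM2G173669, GRMZM2G107839, RPS4, rpp2a-4, Ij, the methionine synthase, P5CS1, PPCK1, MYBR87 and PHT1-3 fall outside this rule and were chosen after their values were seen. Symbols came from RefSeq (Zm-B73-REFERENCE-NAM-5.0) for 2652 gene models, of 18465 paired, and annotation words from a table of genes that the study had chosen on these samples, for 1462. The genes and lists were chosen with earlier results of these data known. Correlation of log2 values within a group was 0.898 to 0.934. Alternatives were other scaling, pseudocounts, filters and thresholds, 8 libraries alone, no trend, a replicate block and leaving out each library.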

Additional observations from a re-analysis of the deposited data

Results flagged for a closer look

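The BS/M ratio differed between maturing and SST by a test of the difference itself for 272 genes toward BS and 168 toward M. Among the named genes above 0 in all 8 libraries, the ratio turned its sign with 2-fold or more on either side for HB115 (GRMZM2G021339, a change of 4.07), RR11 (GRMZM2G040736, 3.85) and PIP1-5 (GRMZM2G081843, 3.07) toward BS, and for c2 (GRMZM2G422750, -5.17), GRMZM2G377079 (-4.09), the methionine synthase (GRMZM2G112149, -3.61), nfa101 (GRMZM2G140051, -2.50) and P5CS1 (GRMZM2G375504, -2.46) toward M. These biases are fitted values, and not each of them passed limma on its own. The SST bias did not pass for RR11 (adjusted p = 0.29), c2 (0.069) and nfa101 (0.071). The maturing bias did not pass for the methionine synthase (0.052) and P5CS1 (0.081). The groups of 2 libraries are too small for a check of single libraries that stand apart.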

How the results depend on the processing

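Counts of called genes depended on the processing. The stricter threshold of 0.01 left 28 genes toward BS and 8 toward M, and a fit with no trend 180 and 76. Under a replicate block, 177 genes were called toward BS and 86 toward M, of which 165 and 84 were among the calls without it. The replicate numbers did not pair the libraries, the correlation of replicate differences between groups lying between -0.04 and 0.02 over 15 pairs of groups. Leaving out 1 of the 8 libraries gave 203 to 358 calls toward BS and 122 to 441 toward M. Leaving out 1 of the mature libraries, an alternative chosen after seeing the data, gave 343 to 372 toward BS and 233 to 280 toward M, with 280 and 279 without the mature BS replicates 1 and 2. The causes were not tested. The counts toward BS and toward M were 366 and 122 on unscaled values, 350 and 134 under median-of-ratios scaling, 281 and 182 or 343 and 214 with the lower or higher pseudocount, 253 and 169 without a filter, 329 and 212 with the stricter one and 364 and 232 with the 8 libraries alone. Over 13609 moderately abundant genes the median change was -0.02. Of the 58 called genes with printed values, 43 stayed past the threshold in each of the 8 fits without 1 library. Their calls were lost for 15 genes without the trend, 14 with the block, 6 without a filter, 5 with the 8 libraries alone, 4 and 3 with the lower and higher pseudocount, 2 on unscaled values, 1 under median-of-ratios scaling and 0 with the stricter filter. RR11, NAC20, gst28, P5CS1, nfa101 and GRMZM2G107839 each lost their call in 4 or more of these 9 settings. Low depth in SST limits what can be said of genes near 0.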
